A study of Aedes albopictus with 4 samples.

Results

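Ferritin, transferrin and cytoplasmic aconitase carry, store and sense iron, and 4 genes for them were taken by identifier from the 25320 genes of the deposited table. They were a ferritin heavy chain (LOC109421124), a ferritin light chain (LOC115254736), a transferrin (LOC109433636) and a cytoplasmic aconitate hydratase (LOC109409733). As comparison genes, 6 others whose product names hold ferritin or transferrin, receptors aside, were added. RNA came from whole fourth-instar larvae of Aedes albopictus, a mosquito also called the Asian tiger mosquito. One group was left untreated and the other received the herbicide diquat at 1/5 of the LC50, which is the median lethal concentration, and both were labelled 72 h. Each group had 2 libraries, and no source says that these came from separate batches of larvae. The p-values thus measure only the spread between libraries, which may be technical. In limma that spread is drawn in part from other genes of similar level, not from the gene alone.

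In insects ferritin is largely a secreted shell of heavy and light subunits. The heavy chain oxidises iron as it enters and the light chain helps to form the mineral core. Transferrin is a secreted iron carrier of the haemolymph. In flies it moves iron between gut and fat body. Cytoplasmic aconitase is an enzyme while it holds an iron-sulfur cluster, and without the cluster the insect protein can bind iron-responsive elements in messenger RNA, among them one in the ferritin heavy chain transcript. Diquat is a bipyridyl compound that passes electrons to oxygen and so forms superoxide, which is known to damage the cluster of aconitases.

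Values are read counts that the authors normalized by 1 factor per library, and they are given in the order of replicates 1 and 2. Depth ran from 34502559 to 48383964 counted reads per library, with both diquat libraries deeper than both controls. Larval cuticle and hexamerin genes, which mark the larval stage, were present, with 0 of 43 at 0 in all libraries, but 27 of 39 tested were lower and 2 higher with diquat (median log2 fold change -0.80). Of 17992 genes tested with limma at an adjusted p of 0.05 (Benjamini-Hochberg), 26.7% were higher and 22.0% lower with diquat. A call alone is therefore common in these data, and sizes and per-library values are given beside each call.

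All 4 iron genes rose with diquat, against the 26.7% of all tested genes that did. Both diquat libraries lay above both controls in each of the 4, as in 37.4% of all tested genes. Rises were more common where counts were high, as they were for these 4. Among 1128 tested genes that averaged 5000 normalized counts or more, a range that holds all 4, 686 rose (median log2 fold change 0.18). Against such genes a rise of all 4 stands out less. The 4 were also chosen with earlier results of these data known, so their joint rise cannot be weighed against these shares. The 2 ferritin subunits rose more than 2-fold, and 2.33% of tested genes were both called higher and at least 2-fold up. Transferrin rose by 1.82-fold and cytoplasmic aconitase by 1.54-fold. On the recovered reads edgeR, which put 26.6% of genes higher, and DESeq2, which put 22.0% higher, also called all 4. The very small limma adjusted p below rest on the trended variance prior. With a constant variance prior they were 0.014 to 0.0173 for the 4.

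The ferritin heavy chain had 15225 and 14650 normalized counts in controls and 33298 and 33177 with diquat. The groups were far apart, with the lower diquat library at 2.18 times the higher control. The mean went from 14937 ± 406 to 33237 ± 85.9 normalized counts (n = 2 per group, SD), which is 1.15 ± 0.02 (SE) on the log2 scale, with a 95% interval from 1.11 to 1.20 and a limma adjusted p of 3.4e-25. Between 12729 and 38872 reads stood behind each value, so that counting error was 0.507% to 0.886% of a value. The SD as a share of the mean was 2.72% between the controls and 0.258% between the diquat libraries, the latter below counting error.

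The ferritin light chain had 11200 and 10639 normalized counts in controls and 25694 and 25418 with diquat. Here too the groups did not overlap, and the light chain had the largest fold change of the 4, except after removal of the trend on genomic span, when the heavy chain did. The mean went from 10920 ± 396 to 25556 ± 195 normalized counts (n = 2 per group, SD), a log2 fold change of 1.23 ± 0.02 (SE; 95% interval 1.18 to 1.28; limma adjusted p = 2.14e-24).

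Transferrin, the secreted carrier, had 11328 and 11033 normalized counts in controls and 20330 and 20266 with diquat. The SD of the diquat libraries was 0.222% of their mean, below a counting error of 0.649%, and both lay above both controls. The log2 fold change was 0.86 ± 0.02 (SE, n = 2 per group; 95% interval 0.81 to 0.91; limma adjusted p = 1.76e-21). In the AalbF5 annotation this gene lies inside an uncharacterized gene (LOC109408932), whose values were 12546, 12262, 21733 and 21660 normalized counts in the same library order. The outer gene's value exceeded that of transferrin by 1218 and 1229 in controls and by 1403 and 1394 with diquat. Transferrin's value was thus between 89.98% and 93.57% of the outer gene's. Whether the counting gave the same reads to both is not stated, and the 2 genes' reads could not be told apart.

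Cytoplasmic aconitate hydratase, the enzyme with the RNA-binding second state, had 6595 and 6654 normalized counts in controls and 10250 and 10092 with diquat. It had the smallest rise of the 4, yet its lower diquat library was 1.52 times its higher control. The log2 fold change was 0.62 ± 0.03 (SE, n = 2 per group; 95% interval 0.56 to 0.68; limma adjusted p = 2.5e-16). No other gene overlaps it in the AalbF5 annotation.

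**Figure D1:**
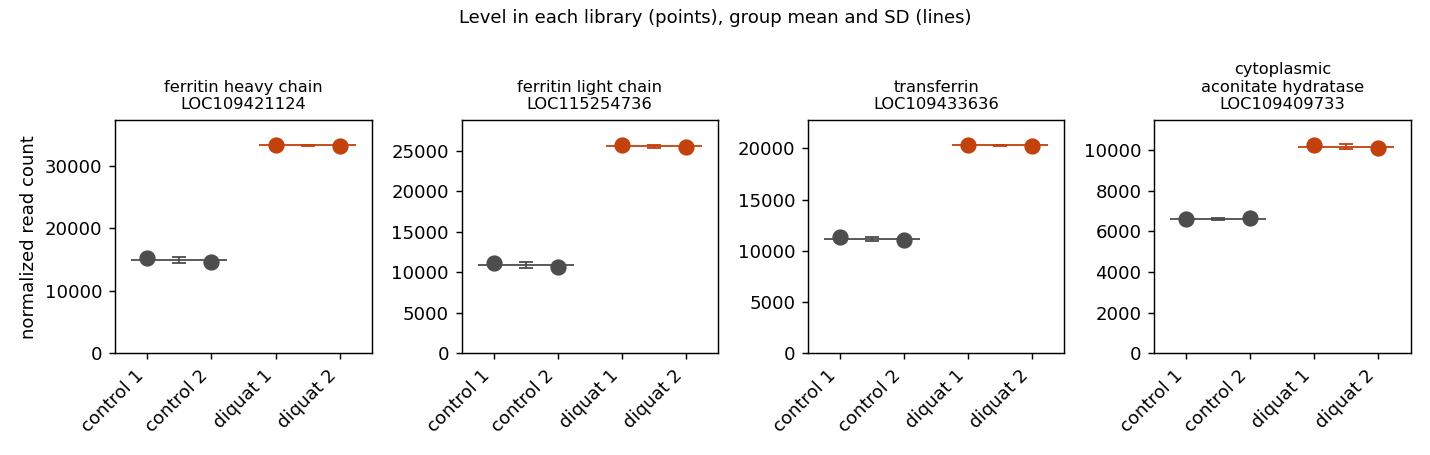
Normalized read counts (vertical axes, from 0) of the 4 genes in each library (points), with the mean and SD of each group (lines and bars, n = 2). In each panel both diquat libraries lie above both controls, from 33177 and 33298 against 14650 and 15225 for the heavy chain to 10092 and 10250 against 6595 and 6654 for cytoplasmic aconitase.

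The 95% intervals of the heavy chain (1.11 to 1.20) and the light chain (1.18 to 1.28) overlapped, and those of transferrin and of cytoplasmic aconitase lay apart from these and from each other. Among all tested genes, 268 had a higher log2 fold change than the light chain and 328 a higher one than the heavy chain. For transferrin that number was 727 and for cytoplasmic aconitase 1792. Both ferritin chains had high counts. Of 538 tested genes whose mean reached 10000 normalized counts, a limit set after values were seen, 363 rose. Of the 538, 12 rose at least 2-fold, and the pair was among the 12. Together the 2 ferritin chains held 0.064% and 0.0618% of all counted reads in controls and 0.142% in both diquat libraries.

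**Figure D2:**
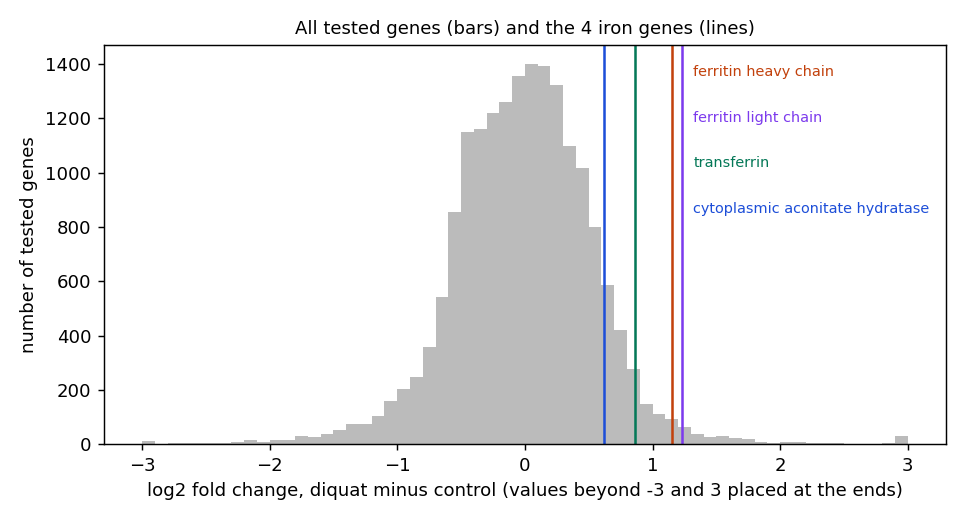
Number of genes (vertical axis) by log2 fold change, diquat minus control (horizontal axis), for all 17992 tested genes (bars), with lines at the 4 iron genes. Lines stand at 0.62 for cytoplasmic aconitase, 0.86 for transferrin, 1.15 for the heavy chain and 1.23 for the light chain, all on the right flank.

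The 2 subunits build the same shell, so their ratio within a library was compared, a measure that does not depend on library scaling. As gene lengths differ, the ratio itself does not give the number of subunits, and only its change between libraries is read. The heavy to light chain ratio of normalized counts was 1.36 and 1.38 in controls and 1.30 and 1.31 with diquat. Groups did not overlap, but the mean change was small, from 1.37 ± 0.01 to 1.30 ± 0.01 (n = 2 per group, SD). The exact permutation test gave p = 0.333, two-sided, the smallest that 2 against 2 libraries allow. After removal of each library's trend on genomic span, the order turned: the log2 fold change was 1.24 for the heavy chain and 1.09 for the light chain.

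The heavy chain was also set against another gene named ferritin light chain (LOC109415200). That ratio was 4.90 and 4.98 in controls and 7.54 and 7.51 with diquat. The light chain LOC115254736 stood at 3.60 and 3.62 times LOC109415200 in controls and at 5.82 and 5.75 times with diquat. The 2 light chain genes thus rose by different sizes, with groups that did not overlap (exact permutation p = 0.333, two-sided, the smallest possible).

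**Figure D3:**
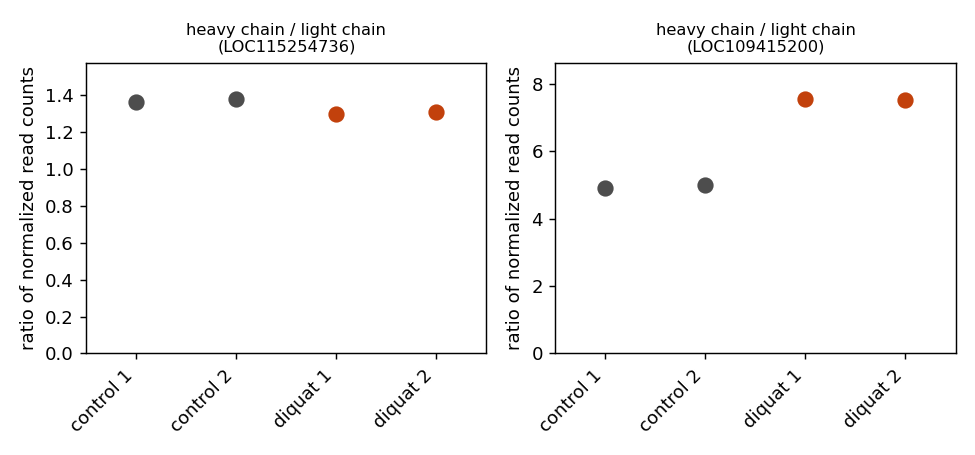
Ratio of the heavy chain's normalized read count to that of each of 2 light chain genes (vertical axes, from 0) in each library (points). The ratio to LOC115254736 lies at 1.36 and 1.38 in controls and 1.30 and 1.31 with diquat, and the ratio to LOC109415200 at 4.90 and 4.98 against 7.54 and 7.51.

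Of the 6 comparison genes, 4 rose, 1 fell and 1 was not called, while 26.7% of all tested genes rose and 22.0% fell. The light chain LOC109415200 had 3109 and 2941 normalized counts in controls and 4416 and 4417 with diquat. It rose with a log2 fold change of 0.55 ± 0.04 (n = 2 per group, SE; limma adjusted p = 8.32e-12), and no other gene overlaps it in AalbF5. Another light chain gene, named ferritin light chain-like (LOC109402140), had 492.8 and 592.6 normalized counts in controls and 621.2 and 721.2 with diquat. Its groups came close to each other, and its call was weak, with a log2 fold change of 0.31 ± 0.10 (n = 2 per group, SE; limma adjusted p = 0.0122). DESeq2 on the recovered reads gave it an adjusted p of 0.0605, and it was not called without control replicate 1 (limma adjusted p = 0.16) or without diquat replicate 2 (0.252). Removing the trend on genomic span gave it 0.19, not called (limma adjusted p = 0.122). It lies inside a mastermind-like gene (LOC134289765) in AalbF5, and its value was 33.7% to 48.4% of that gene's. Whether the 2 share reads is not known.

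A second gene named for the heavy subunit (LOC109414012) was near the detection limit, at 20.3 and 14.6 normalized counts in controls and 9.16 and 15.4 with diquat. Between 10 and 18 reads stood behind each value, the groups overlapped, and the interval of the log2 fold change ran from -1.61 to 0.61 (limma adjusted p = 0.468). A change of this gene was not detectable at this depth.

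The other transferrin genes did not move as one. Transferrin LOC115267434 had 3227 and 3204 normalized counts in controls and 5077 and 5088 with diquat. It rose with a log2 fold change of 0.66 ± 0.04 (n = 2 per group, SE; limma adjusted p = 2.78e-14). It lies inside an uncharacterized gene (LOC134284091), and its value was 51.4% to 60.5% of that gene's. Transferrin LOC109424541 went the other way, with 793.0 and 837.8 normalized counts in controls and 510.4 and 564.2 with diquat. Both diquat libraries lay below both controls, and it fell with a log2 fold change of -0.60 ± 0.09 (n = 2 per group, SE; limma adjusted p = 1.66e-06). This gene too lies inside an uncharacterized gene (LOC109428802), and its value was 82.3% to 90.1% of that gene's.

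Transferrin 2 (LOC109411146), whose fly counterpart is known for a part in epithelial septate junctions, had 1587 and 1607 normalized counts in controls and 1724 and 1820 with diquat. The difference was small, with a log2 fold change of 0.15 ± 0.05 (n = 2 per group, SE; limma adjusted p = 0.0261). DESeq2 gave it an adjusted p of 0.111, and it was not called without control replicate 1 (limma adjusted p = 0.0626) or without diquat replicate 2 (0.23).

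**Figure D4:**
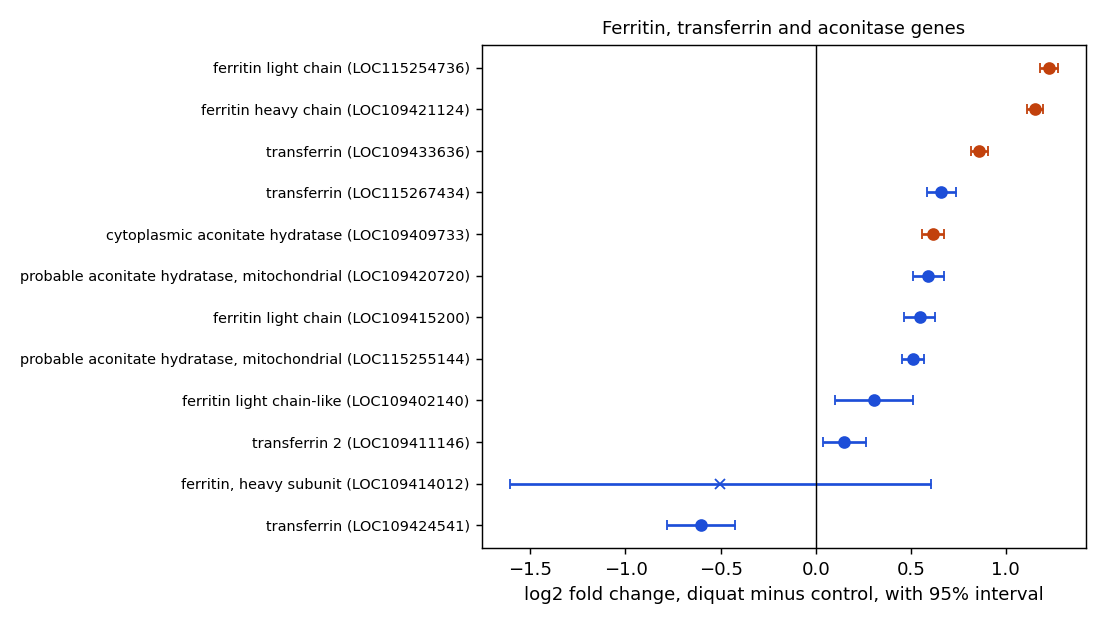
Log2 fold change, diquat minus control (horizontal axis), with the 95% interval of limma for the 4 chosen genes (orange), the 6 comparison genes and 2 mitochondrial aconitases (blue); a cross marks the gene that was not called. Values run from -0.60 for transferrin LOC109424541 to 1.23 for ferritin light chain LOC115254736, and the interval of the heavy subunit gene LOC109414012 spans 0.

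Mitochondrial aconitases, enzymes of the citrate cycle that also need an iron-sulfur cluster, rose by sizes close to that of the cytoplasmic one. LOC115255144 had 7243 and 7467 normalized counts in controls and 10625 and 10328 with diquat (log2 fold change 0.51 ± 0.03, SE; limma adjusted p = 2.1e-14). LOC109420720 had 3880 and 4180 normalized counts in controls and 6237 and 5920 with diquat (log2 fold change 0.59 ± 0.04, SE; limma adjusted p = 7.34e-13). Within a library, cytoplasmic aconitase stood at 0.911 and 0.891 times LOC115255144 in controls and at 0.965 and 0.977 times with diquat. Its ratio to LOC109420720 was 1.70 and 1.59 in controls and 1.64 and 1.70 with diquat, values that overlapped (exact permutation p = 0.667, two-sided).

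Other iron genes were described by product name in lists for iron and haem transport, iron-sulfur cluster assembly, haem metabolism and iron-sulfur subunits of the respiratory chain. With the comparison genes and aconitases but without the 4 chosen genes, these lists held 53 genes, of which 52 were tested, 32 rose and 3 fell. Their median log2 fold change was 0.29, against 0.00 (-0.0028) over all tested genes, where 26.7% rose and 22.0% fell. Rises were more common at high counts, and the lists were not matched to all tested genes for level. With a constant variance prior 20 of the 52 rose, and 24 did by DESeq2. Calls over all tested genes, in either direction, also fell with the constant prior, from 8772 to 5999. DESeq2 put 22.0% of all tested genes higher.

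Of 24 genes for the assembly of iron-sulfur clusters, the cofactors of aconitase among other enzymes, 15 rose and 1 fell. Over all tested genes 26.7% rose and 22.0% fell. The 24 genes had a median log2 fold change of 0.45. One of them rose as much as ferritin: cytosolic assembly factor Nubp1 homolog (LOC109431580), part of the scaffold for cytosolic clusters, had 568.1 and 546.7 normalized counts in controls and 1351 and 1192 with diquat. Its log2 fold change was 1.19 ± 0.08 (SE, n = 2 per group; limma adjusted p = 1.22e-12). Rises were also found in NFU1 (LOC109428400, log2 fold change 0.74), a carrier of finished clusters, and anamorsin (LOC109401408, 0.71), an electron donor of the cytosolic pathway. Adrenodoxin-like protein 2 (LOC115264700), a mitochondrial ferredoxin, rose by 0.68 on the same scale. Cysteine desulfurase (LOC109404803), which supplies the sulfur, rose by 0.54 and the scaffold IscU (LOC134285223) by 0.42.

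Of 9 genes for haem synthesis and breakdown, 6 rose and 0 fell, against 26.7% and 22.0% of all tested genes. The 9 genes had a median log2 fold change of 0.28. The 3 not called were delta-aminolevulinic acid dehydratase (LOC109403180, log2 fold change 0.03), uroporphyrinogen-III synthase-like (LOC109421499, -0.36) and heme oxygenase 1 (LOC109414568, 0.25). The largest rise was in 5-aminolevulinate synthase (LOC109408415), the first enzyme of haem synthesis, from 1706 and 1765 normalized counts in the control libraries to 2844 and 2780 with diquat (log2 fold change 0.70 ± 0.05, SE; limma adjusted p = 2.98e-12). The later enzymes that rose did so by smaller amounts. Protoporphyrinogen oxidase (LOC134285658) had a log2 fold change of 0.49, coproporphyrinogen-III oxidase (LOC109398849) of 0.36 and uroporphyrinogen decarboxylase (LOC109421146) of 0.28. The last was 0.08 and not called (limma adjusted p = 0.174) with the trend on genomic span removed. Porphobilinogen deaminase (LOC109407513) at 0.31 and ferrochelatase (LOC109622685), which inserts the iron, at 0.23 were near the threshold, with limma adjusted p of 0.0451 and 0.0379. DESeq2 called neither of these 2 (adjusted p 0.152 and 0.145), and neither was called without control replicate 1, without diquat replicate 1 or without diquat replicate 2.

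Of 5 transport genes, 1 was higher and 1 lower, shares close to those over all tested genes (26.7% and 22.0%), and the list's median log2 fold change was -0.07. Mitoferrin (LOC109398102), the iron importer of mitochondria, had a log2 fold change of 0.18 ± 0.04 (n = 2 per group, SE; limma adjusted p = 0.000392). With the trend on genomic span removed its value was 0.47 (adjusted p = 2.8e-11), and with a constant variance prior its call was lost (adjusted p = 0.0963). The gene that was lower, poly(rC)-binding protein (LOC109419413), is of a family known in mammals to bind both RNA and iron. Its log2 fold change of -0.39 became -0.06 and lost its call with the genomic span trend removed. The ferric-chelate reductase homologs LOC109430536 and LOC109430546 (-0.25 and -0.07) and the ZIP13 homolog (LOC115259484, 0.08), which in flies exports iron to the secretory pathway, were not called. Some alternatives did call them. With the span trend removed, LOC109430546 was higher at 0.16 (limma adjusted p = 0.00239) and the ZIP13 homolog at 0.19 (0.0152). LOC109430546 was lower without control replicate 2 (-0.12, adjusted p = 0.0358), and the ZIP13 homolog higher without control replicate 1 (0.17, 0.0264). LOC109430536 was lower with equal totals, quantile scaling or a constant prior (limma adjusted p from 0.0214 to 0.05).

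Of 6 tested iron-sulfur subunits of the respiratory chain, 4 rose and 0 fell, against 26.7% and 22.0% of all tested genes. Each rise was smaller than that of any of the 4 chosen genes, and the list's median log2 fold change was 0.13. The iron-sulfur subunit of succinate dehydrogenase (LOC109423293), whose transcript carries an iron-responsive element in flies, went from 5606 and 5304 to 6990 and 6483 normalized counts (log2 fold change 0.30 ± 0.04, SE; limma adjusted p = 8.87e-08). The Rieske subunit (LOC109404395) rose by 0.20, and NADH dehydrogenase iron-sulfur proteins 4 (LOC109417839) and 3 (LOC109425667) by 0.15 and 0.11. The Rieske value was 0.08 with quantile scaling, still called (limma adjusted p = 0.00402). With the span trend removed the values of proteins 4 and 3 were 0.06 and 0.0028 and lost their calls (limma adjusted p = 0.275 and 0.964). Protein 4 was not called without diquat replicate 1 (adjusted p = 0.0909), nor was protein 3 without control replicate 2 (0.102), without diquat replicate 2 (0.323) or by DESeq2 (0.114). With a constant variance prior none of the 4 subunits was called (limma adjusted p from 0.059 to 0.26). Iron-sulfur protein 6 (LOC109421664) had a log2 fold change of -0.11 and was not called.

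**Figure D5:**
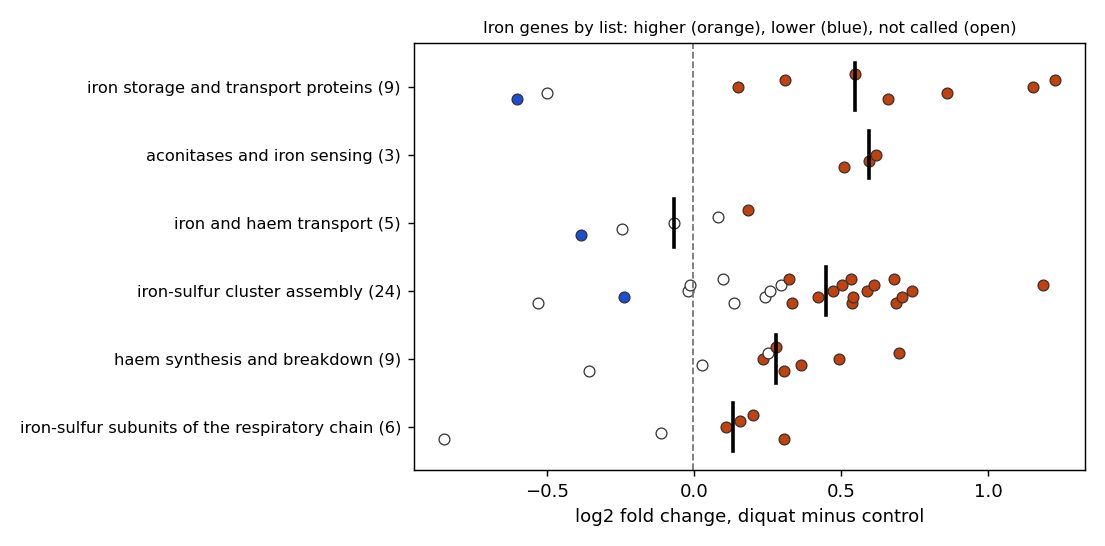
Log2 fold change, diquat minus control (horizontal axis), of each tested gene in 6 iron lists (points; orange, higher; blue, lower; open, not called), with each list's median (black bar), its number of tested genes in brackets and the median of all tested genes (dashed line). Medians lie at 0.55 for storage and transport proteins, 0.59 for aconitases, 0.45 for cluster assembly, 0.28 for haem, 0.13 for respiratory subunits and -0.07 for transport. The storage and aconitase lists include the chosen genes, which were picked with earlier results of these data known.

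The 5 genes most like the ferritin pair were sought among 3849 genes with a described product whose mean reached 1000 normalized counts, by the root mean square distance between log2 profiles over the 4 libraries. They were ATPase inhibitor mai-2 (LOC109400872), which restrains the mitochondrial ATP synthase, at 0.0083, protein Red (LOC115269408), a splicing factor, at 0.0091, and trypsin alpha-3-like (LOC115256099), a digestive protease, at 0.011. Zonadhesin-like (LOC109414408) followed at 0.017 and aminopeptidase N (LOC109415189) at 0.022. In AalbF5 the genes for mai-2, zonadhesin-like and aminopeptidase N lie inside other genes, and that for protein Red overlaps another. Whether they share reads with these is not known. Each ferritin chain itself lay at 0.019 from the mean of the pair, transferrin at 0.165 and cytoplasmic aconitase at 0.287. With 4 libraries in 2 groups this likeness mainly reflects a similar fold change.

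In whole larvae, more cells of a type and more RNA per cell cannot be told apart, and ferritin and transferrin are made in fat body, midgut and blood cells. Summed normalized counts of 16 fat body genes lay between 1105290 and 1110220 in controls and between 982538 and 986340 with diquat. Of 15 tested, 4 genes were higher and 4 lower, where 26.7% of all tested genes were higher and 22.0% lower. The sum of 146 midgut genes, 5 of them at 0 in all libraries, was 546792 to 551026 in controls and 517577 to 521252 with diquat (53 higher and 24 lower of 113 tested). For 31 haemocyte genes it was 130157 to 130417 and 102473 to 102898 (6 higher and 12 lower of 30). Median log2 fold changes of the tested genes were -0.02 for fat body, 0.13 for midgut and -0.01 for haemocyte genes. For the V-type proton ATPase and aquaporin genes listed for the Malpighian tubules the median was 0.29. The midgut sum and median differed in sign. Larval cuticle and hexamerin genes summed to 1056130 and 1059890 in controls and to 856481 and 857838 with diquat. Genes named hexamerin belong to both this list and the fat body list, so these sums are not separate readings. The sum of the 30 V-type proton ATPase and aquaporin genes was higher, 209361 to 209811 in controls and 261858 to 262444 with diquat (21 higher and 3 lower of 30). Whether these genes are made mainly in the tubules was not tested, so their sum is not a measure of that organ. The part of these lists in the results was not tested.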

How the data were processed

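Whole larvae were profiled by RNA sequencing in 2 groups of 2 libraries. The deposited table gives a normalized signal per gene and library, per the file headers. Tools listed in the submitters' processing notes, without their roles, are STAR 2.7.10a, bcl2fastq, DRAGEN and fastp 0.12.4. Sources used here do not give the build, the counter, its strand setting or the tool for normalization. All deposited values (100% in each library, tolerance 1e-06) were whole multiples of 1 step per library, and division by it gave back whole reads. It is not stated how the authors' counting treats reads that match several genes, so values of like ferritin or transferrin genes may share reads.

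Genes whose mean reached 10 normalized counts were fitted with limma 3.58.1 in R 4.3.3 on log2(value + 1), with a mean trend, two-sided, with Benjamini-Hochberg adjustment over all tested genes. Fold changes are on that scale, which understates changes of low genes, and SEs are limma's moderated ones. edgeR 4.0.16 called 8829 genes on the recovered reads and DESeq2 1.42.0 called 7243, against 8772 by limma. Tests were tried on simulated data. Overlaps and genomic spans came from the AalbF5 gene table, in which all 25320 genes were found; both chosen ferritin chain genes lie on its unplaced sequence, where overlap was not determined. Intervals cover no source of error beyond these libraries.

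Members and lists were chosen with earlier results of these data known. Text names the 4 members, every other ferritin or transferrin gene, up to 6 genes of smallest p per list with a mean of at least 50, and the 5 nearest profiles. Haem genes that were not called are named as well. Of the product names that match by letters, 2 pyruvate dehydrogenase regulators (acetyl-transferring) were left out, as was an assembly factor among the respiratory subunits. Python 3.11.15 with numpy 2.4.6, pandas 2.3.3, scipy 1.17.1 and matplotlib 3.10.9 served for ratios and figures.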

Additional observations from a re-analysis of the deposited data

How the results depend on the processing

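Alternatives were pseudocounts of 0.5 and 5, no filter or a mean of at least 50, scaling by quantiles, median ratios or equal totals, a constant prior for the variance, edgeR, DESeq2, each library left out, the trend on genomic span removed, and no overlapping genes. All 4 chosen genes kept their call in each of these that held them, with log2 fold changes of 1.01 to 1.24 for the heavy chain, 1.04 to 1.26 for the light chain, 0.68 to 0.88 for transferrin and 0.49 to 0.63 for cytoplasmic aconitase. Leaving out each library in turn gave 1.13 to 1.18, 1.19 to 1.26, 0.84 to 0.88 and 0.61 to 0.63. With a constant prior the limma adjusted p of the 4, in the same order, were 0.014, 0.014, 0.0153 and 0.0173. Without overlapping or unplaced genes only cytoplasmic aconitase was left of them (1 called), and 4962 of 10471 genes, 2 comparison genes and 21 higher and 1 lower of the 33 other iron genes were called, since fewer genes were tested. Of the 6 comparison genes, 5 were called, but 3 with quantile scaling, a constant prior or DESeq2, and 3 to 5 with a library left out (3 without control replicate 1 or diquat replicate 2). The 32 other iron genes that rose became 20 with a constant prior and 23 to 31 with a library left out, and the 3 that fell became 5 with equal totals and 3 to 5 with a library left out; 8772 genes called over all became 6833 to 8339. The heavy minus light chain difference of log2 fold changes was -0.07 and turned to 0.16 with the span trend removed; their ratio changed by -0.076 to -0.059 with a library left out. The difference of ferric-chelate reductase homolog LOC109430546 turned to 0.16 with the span trend removed, and that of the ZIP13 homolog LOC115259484 ran from -0.0135 without control replicate 2 to 0.1747 without control replicate 1. The causes were not tested.

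Replicate numbers were read only as names of libraries, since no label says that same-numbered libraries were paired. Their deviations had a correlation of 0.012 over genes, which cannot exclude a pairing. With the replicate number as a block, 9056 genes, the 4 chosen genes, 5 comparison genes and 33 higher and 4 lower of the other iron genes were called.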
